A study of Mus musculus with 2 samples.

Results

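Krüppel-like factors are zinc finger transcription factors, and 10 of their genes were followed here in mouse BM LSKs before and after expression of BCR/ABL (BA) was induced. LSKs are lineage-negative bone marrow cells that carry Sca1 and c-Kit on their surface and include the hematopoietic stem cells and early progenitors. The 10 genes, Klf2, Klf3, Klf4, Klf6, Klf7, Klf9, Klf10, Klf11, Klf12 and Klf13, were chosen by name out of 34745 genes, with their values in these libraries already known, so that their levels and changes are given as a description without a test. Both groups were Scl/tTA-BA mice of the C57BL/6 strain, which carry a tTA transgene under the Scl promoter and a BA transgene that tTA turns on when doxycycline is absent. The week-0 group was kept on doxycycline and had no BA induced, and the week-3 group had been off doxycycline for 3 weeks. For each time point, the LSKs of 3 mice were mixed and sequenced as 1 library, so that the spread between mice is unknown, and the BA transgene, the withdrawal of doxycycline and the handling of each library cannot be told apart. The ages of the mice are not given in the sources used here, and BA need not be on in every LSK of the line.

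Krüppel-like factors bind CACCC boxes and GC-rich DNA through zinc fingers at their C-terminal end, and differ in their N-terminal parts, which recruit coactivators or corepressors. Klf2, Klf4, Klf6 and Klf7 belong to the group known mainly as activators. Klf3 and Klf12 repress through the corepressor CtBP, and Klf9, Klf10, Klf11 and Klf13 can recruit Sin3 corepressors. In blood cells, Klf2 is known for keeping T cells quiescent and Klf4 for promoting monocyte differentiation, and several family members are also known as early response genes that are induced quickly by stimuli and stress.

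In total, 6356164 reads were counted on genes for week-0 and 3886695 for week-3. Where a pair of values is given without its time points, week-0 stands first. The authors deposited the reads counted on each gene and the FPKM, which scales them by exon length and by the total. Fold changes divide the week-3 FPKM by the week-0 FPKM, and their 95% intervals (exact Clopper-Pearson) cover counting error only. With 1 library per time point, they hold no spread between mice. Amplification makes several reads from the same molecule, so the intervals can be too narrow even for counting error. A gene is called lower here when the ratio of week-3 to week-0 was at most 0.5 and its interval lay wholly under 1, and higher when the ratio was at least 2 with an interval wholly over 1. All 10 genes had reads in both libraries. Where a gene had 0 reads in a library, up to 3 reads are compatible with that count.

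At week-3, 6 of the 10 genes were called lower and 0 were called higher. Klf2, Klf4, Klf6, Klf10 and Klf11 were lower by between 5.45 and 11.1 times, and Klf3 by 2.46 times. Klf7, Klf9 and Klf13 differed by less than 2 times. Klf12 had too few reads to be placed. Scaled by the reads of the sorting markers Kit and Ly6a in place of all reads, 5 genes were called lower, Klf3 no longer among them. Among the 15377 genes with a read in both libraries, 11.5% were called lower and 9.53% were called higher by the same rule, against 6.05% and 24.6% when scaled by Kit and Ly6a. Among the 668 of them that carry the GO term for transcription factor activity in the deposited tables, which 7 of the 10 genes also carry, 20.4% were called lower. The median log2 fold change of the 10 genes was -2.47, that of the transcription factor genes was -0.16 and that of all 15377 genes was 0.09. In bulk RNA, fewer cells that express a gene and less of its RNA per cell cannot be told apart.

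**Figure D1:**
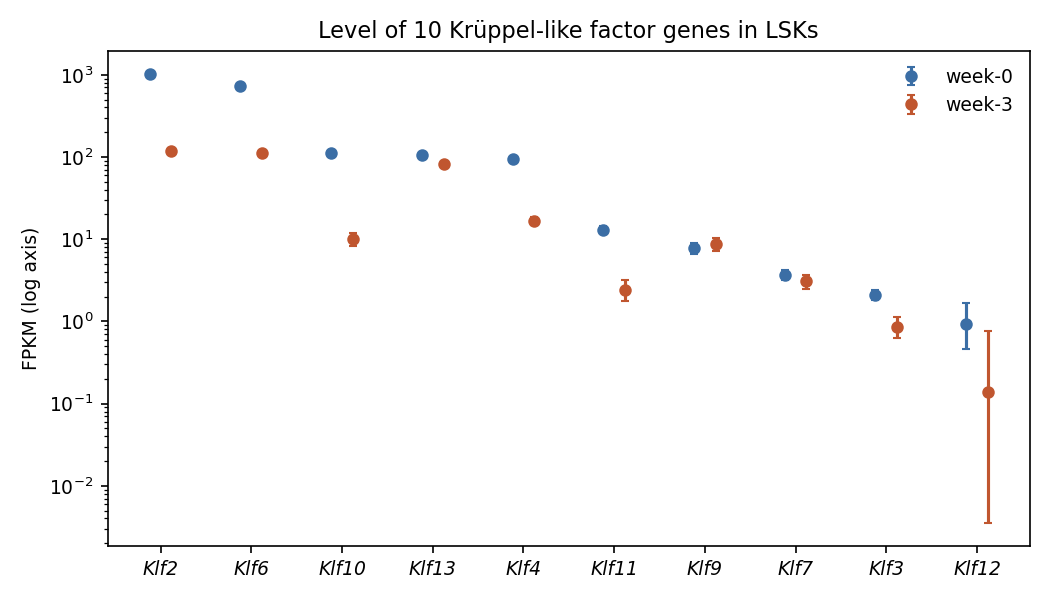
FPKM (log axis) of the 10 genes in the week-0 library (blue) and the week-3 library (orange), in the order of their FPKM at week-0, with bars for the 95% Poisson interval of the reads. Klf2 and Klf6 were the highest at both time points, the pairs of points for Klf13, Klf9 and Klf7 lie close together, and Klf12 rested on 11 reads and 1 read.

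Among the activator group, Klf2 (ENSMUSG00000055148, GRCm38 chromosome 8, from 72319033 to 72321656) had the highest FPKM of the 10 genes. Its FPKM was 1025 in the week-0 library, from 12032 reads, and 119 in the week-3 library, from 855 reads. Klf2 was thus 8.61 times lower (95% interval 8.03 to 9.23), or -3.11 on the log2 scale. By FPKM it was gene number 44 of the whole table at week-0 and number 466 at week-3. Klf6 (ENSMUSG00000000078, chromosome 13, from 5861489 to 5870393), which is widely expressed and known as a tumour suppressor, had the most reads of the 10 genes at week-0. Its FPKM was 726, from 19450 reads, before induction and 113, from 1847 reads, after it. The log2 fold change of Klf6, -2.69, had a 95% interval from -2.76 to -2.62.

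Klf4 (ENSMUSG00000003032, chromosome 4, from 55527143 to 55532466), also known as a reprogramming factor, had an FPKM of 93.8 (2628 reads) at week-0 and of 16.6 (285 reads) at week-3. Its log2 fold change of -2.50 had a 95% interval from -2.68 to -2.32, which overlapped that of Klf6 but not that of Klf2. The group's remaining gene stood apart from these. Klf7 (ENSMUSG00000025959, chromosome 1, from 64029447 to 64122282), best known from neurons, had FPKM of 3.67 and 3.06, from 206 and 105 reads. Its log2 fold change of -0.26 had an interval from -0.62 to 0.08, and a difference was not detectable at this depth.

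Of the Sin3-binding group, Klf10 (ENSMUSG00000037465, chromosome 15, from 38294413 to 38300707), a gene known to be induced by TGF-beta, had the largest difference of the 10 genes. In the week-0 library 2154 reads gave it an FPKM of 111, and in the week-3 library 119 reads gave it 10.1. Klf10 was 11.1 times lower (95% interval 9.20 to 13.4), or -3.47 on the log2 scale. The interval of Klf10 overlapped that of Klf2, so that their order is not settled by the reads. Klf11 (ENSMUSG00000020653, chromosome 12, from 24651371 to 24662774), its closest relative and also TGF-beta inducible, was expressed less, with FPKM of 13.1 and 2.40 from 410 and 46 reads. It was 5.45 times lower in the week-3 library (95% interval 4.01 to 7.56).

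The other genes of the Sin3-binding group differed far less. Klf13 (ENSMUSG00000052040, chromosome 7, from 63886351 to 63938915), an activator of Ccl5 in T cells, had FPKM of 107 and 81.3, from 5722 and 2660 reads. Its log2 fold change of -0.40 (95% interval -0.46 to -0.33) was small, with a counting interval that did not hold 0. Klf9 (ENSMUSG00000033863, chromosome 19, from 23141226 to 23166911), a glucocorticoid and thyroid hormone target, was the only one of the 10 genes with a higher FPKM at week-3, although Klf7 and Klf13 were also above 0 when scaled by Kit and Ly6a. Its FPKM was 7.71 from 160 reads, then 8.67 from 110 reads. The interval of its log2 fold change of 0.17 ran from -0.19 to 0.53, and a difference was not detectable when scaled by all reads. Scaled by Kit and Ly6a, Klf9 was at 0.69, outside that interval, and was still not called higher.

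The CtBP-binding group had the lowest FPKM. Klf3 (ENSMUSG00000029178, chromosome 5, from 64803388 to 64832901), a repressor known from erythroid and B cells, had FPKM of 2.09 and 0.848, from 193 reads before induction and 48 after it. Its log2 fold change of -1.30 had a 95% interval from -1.79 to -0.84, which reached across the limit of 0.5 times. Klf12 (ENSMUSG00000072294, chromosome 14, from 99874486 to 100149764) had FPKM of 0.932 and 0.139, which rested on 11 reads and on 1 read. Its ratio was known only within a log2 interval from -8.18 to 0.03. By the ratio alone, nearest to the limit of 0.5 times were Klf3 inside it, with a ratio of 0.407, and Klf13 outside it, with a ratio of 0.760.

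**Figure D2:**
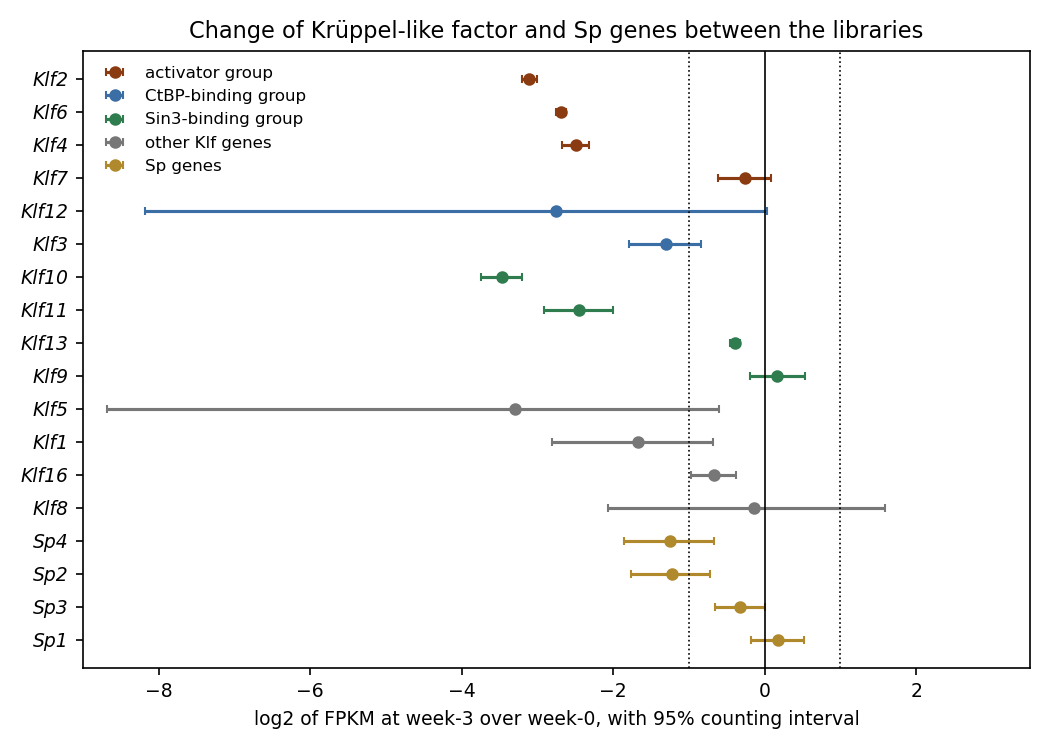
Log2 fold change of FPKM (week-3 over week-0) for the genes of the family with a read in both libraries, with 95% counting intervals; dotted lines mark 0.5 and 2 times. Klf10, Klf2, Klf6, Klf4 and Klf11 lie at -2.45 or lower with narrow intervals, and Klf12, Klf5 and Klf8 have wide ones.

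The 10 genes together took 0.676% of all week-0 reads and 0.156% of all week-3 reads. This share was 4.32 times lower in the week-3 library (95% exact interval 4.21 to 4.44). Without Klf2 and Klf6, the share of the other 8 genes was 0.181% at week-0 and 0.0868% at week-3, 2.08 times lower. By group, the reads of the activator group were 6.79 times lower, those of the CtBP-binding group 2.55 times and those of the Sin3-binding group 1.76 times lower.

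The order of the levels depended in part on the gene length used. From high to low FPKM, the order at week-0 was Klf2, Klf6, Klf10, Klf13, Klf4, Klf11, Klf9, Klf7, Klf3 and Klf12, and only the intervals of Klf10 and Klf13 overlapped among neighbours. At week-3 the order was Klf2, Klf6, Klf13, Klf4, Klf10, Klf9, Klf7, Klf11, Klf3 and Klf12. Neighbours with overlapping intervals at week-3 were Klf2 and Klf6, Klf10 and Klf9, Klf7 and Klf11, and Klf3 and Klf12. Klf2 made up 49.0% of the summed FPKM of the 10 genes before induction and 33.6% after it, and Klf6 made up 34.7% and 31.8%. The share of Klf13 was 5.12% at week-0 and 22.9% at week-3, while that of Klf10 was 5.32% and 2.83%. These shares do not depend on how the libraries were scaled, but they depend on length. Levels were also taken per length of the transcript with the longest coding sequence in GENCODE M21, an alternative chosen after seeing the data. By that length, the order at week-0 was Klf2, Klf6, Klf13, Klf4, Klf10, Klf11, Klf3, Klf9, Klf7 and Klf12. The order at week-3 was that by FPKM. Klf3, whose FPKM rests on a length 2.79 times that of its transcript, then stood above Klf7 at week-0. Klf10 stood below Klf13 and Klf4 at both time points, and Klf11 moved behind Klf9 and Klf7 by either length. The share of Klf13 was then 6.49% and 27.6%, and that of Klf10 5.13% and 2.59%.

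**Figure D3:**
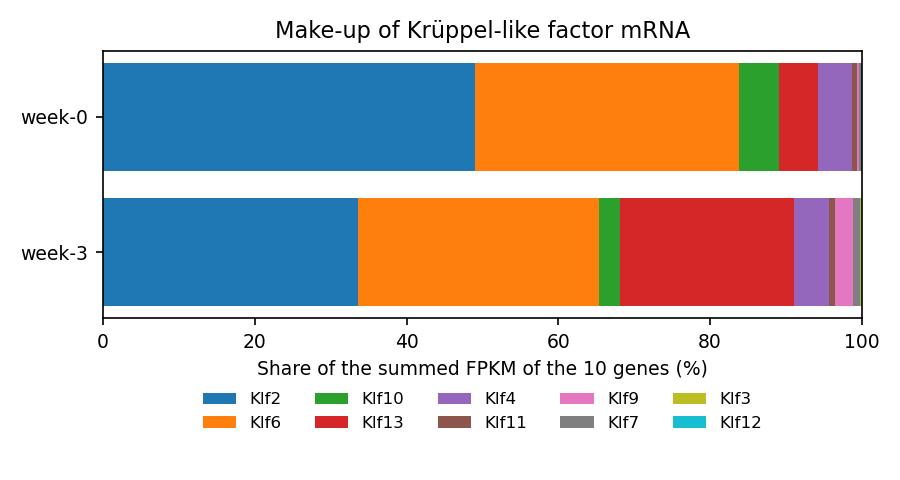
Share of the summed FPKM of the 10 genes (percent) that each gene made up in the week-0 and the week-3 library. The share of Klf13 was 5.12% in the upper bar and 22.9% in the lower, and Klf2 with Klf6 took most of the sum in both.

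Set against the 12082 genes with at least 20 reads over both libraries, the lower members lay far from the middle. Of these genes, 1.52% had a lower fold change than Klf10, 2.03% a lower one than Klf2 and 2.97% a lower one than Klf6. For Klf4 and Klf11 the shares were 3.62% and 3.82%, and for Klf3 10.5%. Klf13, Klf7 and Klf9 had 29.8%, 34.9% and 55.0% of genes below them. The 3 genes nearest to Klf10 in the plane of the log2 FPKM at week-0 and at week-3 were Ddit3, at a distance of 0.18, the immunoglobulin gene Igkv1-88 and Sik1. Ddit3, a stress-induced transcription factor, had FPKM of 101 and 9.28. Nearest to Klf9 were Fyb, BC029214 and Tyk2, at distances of 0.0078, 0.022 and 0.023. With only 2 libraries, this likeness rests on 2 values for each gene.

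**Figure D4:**
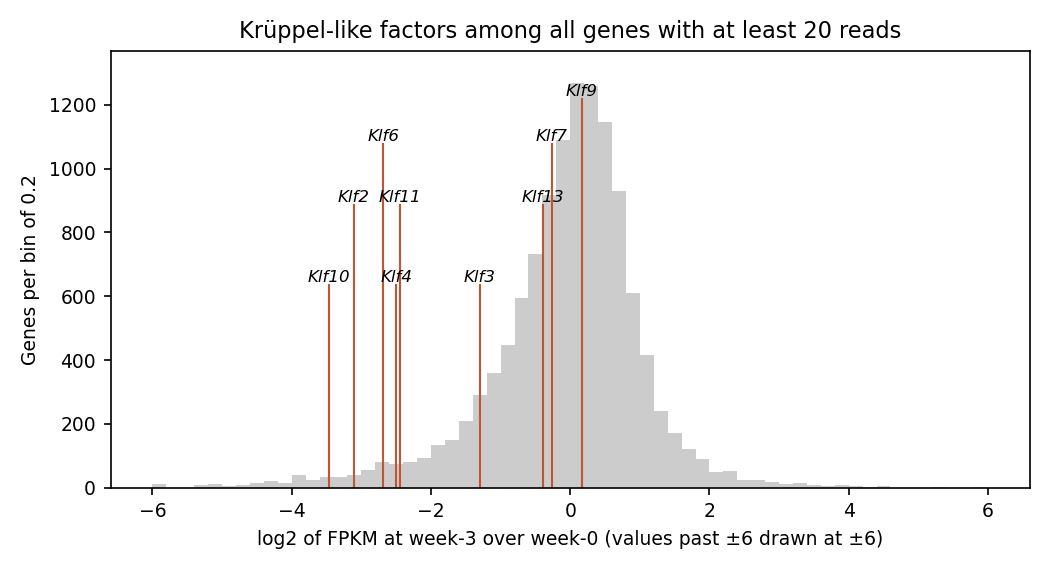
Number of genes per bin of log2 fold change (week-3 over week-0, bins of 0.2) for the 12082 genes with at least 20 reads, with lines at 9 of the Krüppel-like factor genes; Klf12, with 12 reads in all, is not drawn. Klf10, Klf2, Klf6, Klf4 and Klf11 stand in the left tail and Klf13, Klf7 and Klf9 in the bulk of the genes; the heights of the lines have no meaning.

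The other genes of the family were expressed less than the abundant members. Of 7 further Klf genes in the table, 4 had reads in both libraries and 2 of these were called lower, while Klf15 and Klf17 had 0 reads. Klf16, another Sin3-binding factor, had the most reads of these, 339 and 130, with FPKM of 19.9 and 12.5. Klf16 was at -0.67 on the log2 scale, with a 95% interval from -0.98 to -0.38. The erythroid factor Klf1 had 52 and 10 reads and was called lower, at -1.67 with an interval from -2.81 to -0.68. Klf5, known from epithelia, was also called lower with 16 reads and 1 read, and its log2 interval ran from -8.68 to -0.60. Of the 9 related Sp genes, which bind GC boxes, 5 had no reads. Sp2 and Sp4 were called lower, with log2 fold changes of -1.23 and -1.24, and would not be when scaled by Kit and Ly6a. Sp1 and Sp3 were at 0.17 and -0.32 with intervals that held 0.

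Parts of the promoters of Klf2, Klf4 and Klf6, 3 abundant members that were lower, are shown with that of Klf9, whose FPKM was close in both libraries. RefSeq promoter sequences (GRCm38.p6, 250 bases before to 50 after the start of the gene) were matched for 9 of the 10 genes, all but Klf10. Stretches of 150 bases are printed 5′ to 3′ on the strand of the gene, with motif matches in capitals. They run from -180 to -31 for Klf2 (chr8:72318882-72319031, plus strand), from -225 to -76 for Klf4 (chr4:55532551-55532700, minus strand), from -160 to -11 for Klf6 (chr13:5861329-5861478, plus strand) and from -150 to -1 for Klf9 (chr19:23141076-23141225, plus strand), counted from the first base of the RefSeq gene.
Klf2: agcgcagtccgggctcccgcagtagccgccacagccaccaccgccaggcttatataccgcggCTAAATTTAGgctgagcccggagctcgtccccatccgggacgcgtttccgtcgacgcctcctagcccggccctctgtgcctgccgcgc
Klf4: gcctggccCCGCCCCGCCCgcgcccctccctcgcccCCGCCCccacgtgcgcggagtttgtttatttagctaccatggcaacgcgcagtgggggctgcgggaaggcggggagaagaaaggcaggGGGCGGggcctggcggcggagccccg
Klf6: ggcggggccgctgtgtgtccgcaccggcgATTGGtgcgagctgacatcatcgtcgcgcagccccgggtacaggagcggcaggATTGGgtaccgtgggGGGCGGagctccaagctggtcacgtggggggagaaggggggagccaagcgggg
Klf9: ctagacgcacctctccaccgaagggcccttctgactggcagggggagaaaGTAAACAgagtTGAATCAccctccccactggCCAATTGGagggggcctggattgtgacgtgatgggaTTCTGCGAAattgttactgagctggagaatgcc

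The capitals in Klf2 mark a match to the MEF2 motif, which 3.19% of the 32851 promoters searched hold and no other promoter of the members holds. The search left out 1 chromosome, on which none of the members lies, and all promoters here means those searched. The capitals in Klf4 mark GC boxes, and those in Klf6 mark CCAAT boxes and 1 GC box. In Klf9 they mark FOXO, AP-1, CCAAT and STAT motifs, of which the CCAAT matches on the 2 strands overlap. The stretches start at different positions and leave out other matches, so they do not compare the promoters motif by motif. Left out are GC boxes of Klf2 at -214 and -195 and its CACCC box at -19. Also left out are CCAAT boxes of Klf6 at -230 and -200 and of Klf9 at -170. Searches on both strands used GGGCGG for the GC box, CCACCC for the CACCC box, and CCAAT for the CCAAT box. They used GTAAACA for FOXO, TATAAA for the TATA box, TTCNNNGAA for STAT, TGACGTCA for the CRE and GCGTGGGCG for EGR. The AP-1 motif was searched loosely as TGANTCA, with any base at its centre, and the match in Klf9 is TGAATCA. The CArG box and the MEF2 motif were searched by their usual forms. The FOXO, AP-1 and STAT motifs were in 3.65%, 7.81% and 8.30% of all promoters. The TATA box was in 13.6% of them and in that of Klf12. GC boxes were in 7 of the 9 promoters and in 35.7% of all promoters, and CACCC boxes in 4 and in 31.5%. CCAAT boxes were in 4 of the 9 promoters and in 37.4% of all. The CRE, the CArG box and the EGR motif had 0 matches in these windows, and were in 1.79%, 1.63% and 0.612% of all promoters. The GC content of the full promoter was 69.3% for Klf2, 74.3% for Klf4, 63.0% for Klf6 and 63.3% for Klf9. It was highest for Klf11 with 77.7% and lowest for Klf12 with 45.7%, and the mean of all promoters was 53.8%. A match is a description of the sequence and does not show that a factor was bound.

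The transcripts of the members share a small number of exons and differ in the length of the 3′ untranslated region. In GENCODE M21, the transcript with the longest coding sequence of each member had between 2 and 8 exons. The median was 9 over 12390 genes with reads in both libraries. Coding lengths ran from 732 bases (Klf9) to 1506 (Klf11), around a median gene of 1383. The 3′ untranslated region was shortest in Klf2, with 740 bases, and longest in Klf7, with 6269 bases. ATTTA, a core of AU-rich elements that are known to speed mRNA decay, occurred 1 time in Klf2 and Klf4, 4 times in Klf10, 7 times in Klf6 and 18 times in Klf7. Its density was highest in Klf7, with 2.87 per kilobase, and Klf10, with 2.68, followed by Klf9 with 2.48 and Klf6 with 2.25, and lowest in Klf13, with 0.581, where the median gene had 1.20. In the GO terms of the deposited tables, Klf2, Klf4 and Klf6 are all 3 genes listed for cellular response to cycloheximide, an inhibitor of protein synthesis, a term picked after the values were seen.

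The corepressors through which these factors act were expressed in both libraries. Of 7 genes for CtBP, Sin3 and class I histone deacetylases, 0 were called lower and 0 higher, with a median log2 fold change of 0.14. Ctbp1 had FPKM of 10.3 and 10.6, Sin3b had 28.1 and 33.8, and Ctbp2 was at a log2 fold change of 0.88. Of the coactivators Ep300, Crebbp, Kat2a and Kat2b, 0 of 4 were called in either direction, with a median of -0.20, and Kat2b was closest to the limit at 0.98. None of 7 ubiquitin ligase genes such as Fbxw7 and Wwp1, which are known to degrade Klf2 and Klf5, was called, with a median of 0.27. The lists of genes used here were fixed with results on these libraries known, so their counts are descriptions too. Calls of listed genes and of the other Klf and Sp genes are given at the scaling by all reads. Scaling by Kit and Ly6a would raise each log2 fold change by 0.52. Ctbp2, Hdac3 and Kat2b would then be among the genes called higher.

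**Figure D5:**
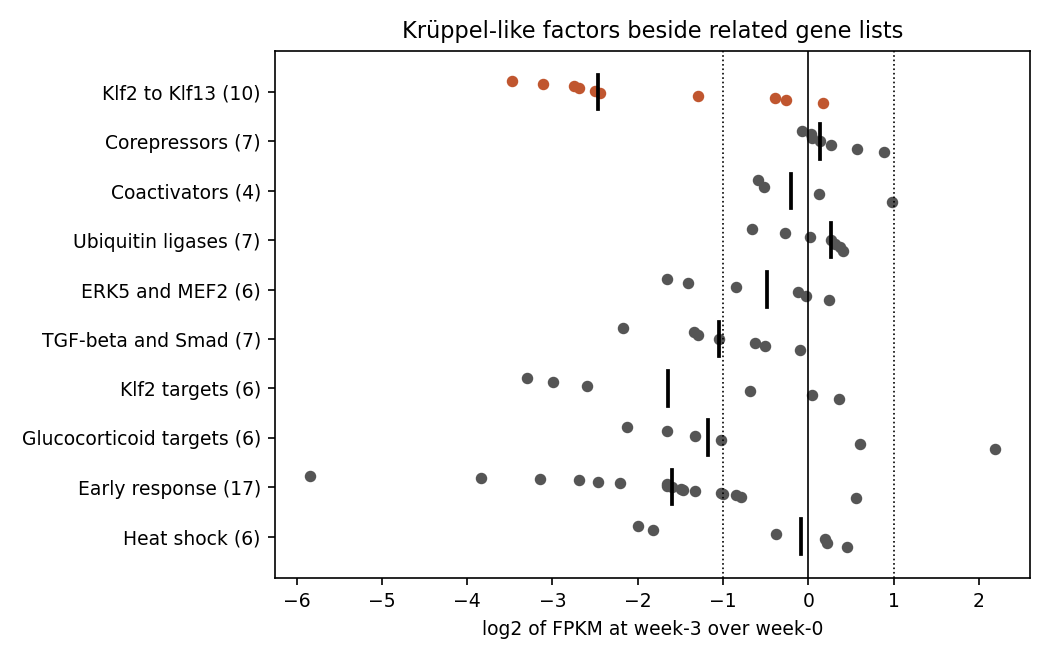
Log2 fold change of FPKM (week-3 over week-0) for the 10 Krüppel-like factor genes (top row, orange) and for lists of related genes with a read in both libraries (grey, number of genes in brackets); bars mark medians, the solid line no change and the dotted lines 0.5 and 2 times. The corepressors have a median of 0.14 and the early response genes one of -1.60.

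Genes that act before the factors were more mixed. MEK5 and ERK5 signal to MEF2 proteins, which are known to activate Klf2 and Klf4. Map2k5 (MEK5) and Mapk7 (ERK5) were not called, with log2 fold changes of -0.12 and 0.24. Mef2c was called lower at -1.41, with 2003 and 461 reads and an interval from -1.56 to -1.26. Mef2d was called lower at -1.65, with 1162 and 226 reads. Mef2a was at -0.84 and was not called, and the median of this list of 6 was -0.48. Of the 7 genes of the TGF-beta axis, which induces Klf10 and Klf11, 4 were called lower. They were Smad7 at -2.17, the ligand gene Tgfb1 at -1.34, the receptor gene Tgfbr2 at -1.29 and Smad3 at -1.04. Smad2, Smad4 and Tgfbr1 were at -0.62, -0.10 and -0.51 and were not called. The median of this list was -1.04. Scaled by Kit and Ly6a, Tgfb1, Tgfbr2, Smad3 and Mef2c would not be called lower.

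Of 6 genes known as Klf2 targets in lymphocytes or endothelium, 3 were called lower. S1pr1, the sphingosine phosphate receptor that guides lymphocyte exit, had FPKM of 31.6 and 3.21, from 612 and 38 reads. S1pr1 was at -3.30, with an interval from -3.81 to -2.83. Cdkn1a, the cell cycle inhibitor p21, had 14243 and 1439 reads and was at -2.60. Nos3 had 26 and 2 reads, with an interval from -6.11 to -0.99. Itgb7, an integrin gene, had FPKM of 24.9 and 31.8 and was not called, and Thbd was at -0.69. The median of the list was -1.64, and its members did not move together.

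Klf9 is a glucocorticoid target, and the other glucocorticoid targets of the list went both ways. Fkbp5 was called higher, at 2.20, with 100 and 280 reads and an interval from 1.86 to 2.54. Per1, Dusp1, Sgk1 and Tsc22d3 were called lower, at -2.12, -1.66, -1.33 and -1.02, and Zbtb16 was at 0.61. The median was -1.18, and Dusp1 also stands on the list of early response genes. Scaled by Kit and Ly6a, Sgk1 and Tsc22d3 would not be called lower, and Zbtb16 would be called higher.

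Most early response genes were lower as well. Of 17 listed genes with a read in both libraries, 14 were called lower and 0 higher, and the median log2 fold change was -1.60. Atf3 was lowest at -5.85, followed by Nr4a1 at -3.84 and Egr1 at -3.15. Fos was at -0.79 and Myc at 0.56. Egr3 had 63 and 0 reads. Jun, Btg2, Egr2, Zfp36 and Ier2 would not be called lower when scaled by Kit and Ly6a, and Myc would be called higher. The list took 4.11% of the week-0 reads and 1.23% of the week-3 reads, with a summed FPKM of 14874 and 4670. Of 6 heat shock genes, which respond to stress and handling, 2 were called lower, namely Dnajb1 at -1.82 and Hspa1b with 26 and 4 reads, and the median was -0.09. Reads of Hspa1b are uncertain because Hspa1a is a near-identical copy, and Hspa1b would not be called lower when scaled by Kit and Ly6a. The part of an early response in the levels of Krüppel-like factors was not tested.

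The libraries also differed in genes of other cell types. The LSK markers Kit and Ly6a (Sca1) were present in both, with FPKM of 16.9 and 11.5 for Kit and of 19.8 and 14.8 for Ly6a. Of 8 LSK and stem cell genes, 3 were called lower, Flt3 and Procr among them, and Slamf1, with 10 and 15 reads, was called higher, and their summed FPKM was 309 and 119. Higher at week-3 were 6 of 7 mast cell and basophil genes with a read in both libraries (summed FPKM of the 8 listed genes 288 and 3259), 7 of 8 neutrophil genes (223 and 968) and 3 of 6 monocyte genes (261 and 452). The remaining 1 of the 7 mast cell and basophil genes was called lower. Tpsb2, a mast cell tryptase, had 0 and 5442 reads. Lower at week-3 were 5 of 8 B and plasma cell genes (summed FPKM of the 9 listed genes 10251 and 680), 5 of 6 erythroid genes (552 and 31.0) and 4 of 6 dendritic cell genes (245 and 63.7). Flt3 stands on both the LSK and the dendritic cell list and is 1 of these 4. With FPKM of 157 and 38.9 it made up most of the dendritic cell sum. Of the T cell markers, Cd3e had 5 and 0 reads and Cd8a had 3 and 0, and the summed FPKM was 27.1 and 12.7, of which most was Lck and Lat. Of the endothelial markers, Cdh5 had 3 and 0 reads and Kdr had 4 and 0. Pecam1 had 260 and 189 reads, Tek had 54 and 17, and Emcn had 108 and 19. Of these 3 endothelial markers with a read in both libraries, only Emcn was called lower (summed FPKM of the 5 listed genes 8.47 and 6.75). Of 5 megakaryocyte genes, 1 was called lower (50.8 and 49.2). With all these markers and the immunoglobulin genes left out of the totals, each log2 fold change of a Krüppel-like factor moved by -0.01. The part of such cells in the differences was not tested. None of 6 genes often used for scaling was called, and they ranged from -0.98 for B2m to 0.82 for Gapdh. Scaled by Kit and Ly6a, Gapdh and Hprt would be called higher, and so would Csf1r, Itga2b and Gp1bb of the cell type genes. Procr, Prss34, Lat, Epor and Siglech would then not be called lower. The mouse genes homologous to the parts of the transgene, Abl1 and Bcr, were at -0.75 and -1.07, and these values do not check the induction of BA.

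A few members lie over other annotated genes, and the sources used here do not say whether reads were counted by strand. E030018B13Rik, within Klf13, had 61 and 5 reads, and Gm27252, also within Klf13, had 88 and 57. C230096K16Rik, near the start of Klf3, had 22 and 3 reads, and Gm20033 had 8 and 5. Of the genes within Klf7, Gm13748 had 1 read in each library and Gm26649 had 0. Next to the 5722 and 2660 reads of Klf13 its overlapping genes have few, but those at the Klf3 locus are a larger part of its 193 and 48 reads. Klf2, Klf4, Klf6, Klf9, Klf10, Klf11 and Klf12 overlap no other gene of the table.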

How the data were processed

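LSKs were sorted by FACS, and cDNA was made from mixed RNA with a SMARTer low-input kit and sequenced in paired ends. Per the methods and the labels, the authors trimmed reads and aligned them with TopHat 2.0.9 to GRCm38 (mm10). The counting tool, annotation release and strand setting are not given in the sources used here. The authors deposited raw read counts per gene, and FPKM scaled by exon length and total reads. The log2 FPKM ratio and the log2 ratio of read shares differed by at most 0.000806.

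With 1 library per time point, no test was run and no p-value is given. Intervals are exact Clopper-Pearson for ratios and shares and Poisson for single FPKM, at 95%, computed with Python 3.11.15 and scipy 1.17.1. Alternatives were other scalings, pseudocounts, limits and denominators. The fold rule and its intervals were tested on simulated read counts. These were independent Poisson counts, without amplification or a spread between mice, so the intervals were not tested for either. TMM factors came from edgeR 4.0.16 and median-of-ratios factors from DESeq2 1.42.0, in R 4.3.3. The members, gene lists, motifs and named GO terms were chosen with earlier results of these data known. Named genes are the 10 members, listed genes that met the fold rule or had most reads, overlapping genes, and the 3 genes nearest to the members with the lowest and highest ratio. Other listed genes are named where a defining marker was near 0 or a value lay near the limit, and these were chosen after their values were seen. Values of 3 further listed genes are not reported here.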

Additional observations from a re-analysis of the deposited data

How the results depend on the processing

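Of the 10 genes, between 5 and 7 were called lower and 0 were called higher under every alternative run. Klf3 was not called with a pseudocount of 1, with limits of 3 and 0.33 times, with an interval required to lie past 0.5 times, or scaled by Kit and Ly6a, and Klf12 was called with TMM, with median-of-ratios scaling and by the ratio alone. TMM shifted each log2 fold change by -0.11 and median-of-ratios by -0.09. Scaling by the reads of the sorting markers Kit and Ly6a, chosen after seeing the data, shifted each by 0.52. It put Klf13 at 0.12, Klf7 at 0.26 and Klf9 at 0.69, all above 0. The median of the 10 genes was then -1.95 and that of all genes 0.61, with 931 genes lower and 3782 higher against 1772 and 1465. The median of the 10 genes was -1.41 on the log2(FPKM + 1) scale, which lowers the change of weakly expressed genes by construction. The share of reads on the 10 genes was 4.45 times lower at week-3 with the early response list left out of the total, and 2.08 times lower without Klf2 and Klf6, an alternative chosen after seeing the data. Leaving out the markers of other cell types and the immunoglobulin genes, also chosen afterwards, gave 4.36 times. With 11 reads and 1 read, the depth does not place Klf12. No paired analysis was possible because each time point has 1 library, and no replicate could be left out.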

Other observations

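Klf1, the erythroid member of the family, was low beside erythroid genes. It had FPKM of 5.33 at week-0 and 1.68 at week-3. Hba-a1, for alpha globin, had 2036 and 32 reads, Hbb-bs, for beta globin, had 3032 and 143 reads, and Alas2, the first enzyme of heme synthesis in red cells, had 49 and 2 reads. Their log2 fold changes were -5.28, -3.70 and -3.91, the last with an interval from -6.99 to -1.98. Reads of Hba-a1 and of the beta globin genes may be shared with near-identical copies, so these values are uncertain.

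The length by which the deposited FPKM of the members were scaled can be read from the counts. It was 14.6 kb for Klf3 and 1.86 kb for Klf12. Their transcripts with the longest coding sequence in GENCODE M21 have 5221 and 5890 bases. For Klf2 the length was 1.85 kb, against 1847 bases. The level of Klf3 was 2.09 by FPKM and 5.82 per kilobase of its coding transcript at week-0, on the same scale, and the change between the libraries does not depend on this length.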
